A study of Arabidopsis thaliana with 12 samples.

Results

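The B-class floral homeotic genes APETALA3 (AP3) and PISTILLATA (PI) of Arabidopsis thaliana are described here through 2 probe sets of the Affymetrix ATH1 array, 251898_at for AP3 (AT3G54340) and 246072_at for PI (AT5G20240), out of 22746 probe sets besides the array controls. They were chosen by their gene class and on their steroid against mock differences, which an earlier reading of these arrays had given. These values are therefore given as a description, without a test. The platform's gene table used here lists no symbol for either probe set, so the assignment to the loci is the one that came with the choice. RefSeq's annotation of TAIR10.1 gives these loci the symbols AP3 and PI.

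AP3 and PI encode MADS-domain transcription factors that bind DNA as a heterodimer. In the ABC model the pair specifies petals in the second whorl together with the A-class genes, and stamens in the third whorl together with the C-class gene AGAMOUS. Loss of either gene turns petals into sepals and stamens into carpels. The floral regulators LEAFY and UFO start their transcription, and the AP3 and PI proteins help to maintain it.

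All samples came from inflorescence tips of plants homozygous for ap1-1 and cal-1, a double mutant that forms masses of meristems where flowers would arise, and all carried 35S:AGGR, a fusion of AGAMOUS to the steroid-binding part of the rat glucocorticoid receptor. The constitutive 35S promoter drives the fusion, and dexamethasone, a synthetic steroid, activates it, so that stamens and carpels start to form in synchrony. The steroid groups received 10 µM dexamethasone with 0.1% ethanol and 0.015% Silwet L-77, a wetting agent, and were collected after 1, 3 or 7 days. The mock groups received the same solution without dexamethasone and were collected on the same days. Each of the 6 groups had 2 independent samples, with 1 array per sample. No group without the fusion is among these samples, so the steroid's own effect and that of the fusion cannot be told apart. The tips also mix cell types, and more cells that express a gene cannot be told apart from more RNA of that gene per cell.

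The arrays were not on a common scale. The lowest and highest deposited medians were 16.1 and 20.8 among day 1 arrays, 20.1 and 32.2 among day 3 arrays and 62.6 and 95.2 among day 7 arrays. RNA quality was followed through the GAPDH control probes, as signal at the 3' end over signal at the 5' end. This ratio lay between 4.16 and 11.2 in the day 1 arrays, between 6.60 and 15.8 in the day 3 arrays and between 1.09 and 1.41 in the day 7 arrays. Each array was multiplied to a common median of 24.8, and the result is called the scaled signal. Log2 values are of the scaled signal plus an offset of 4.35, which understates ratios of weak signals. The scale is that of each probe set, so levels of AP3 and PI are not set against each other. Of 12 shoot meristem genes listed as a check of the tissue, only CLV3, which encodes the signal peptide of the stem cell niche, had a named probe set. Its scaled signal was between 8.19 and 43.0 in the 12 arrays. It lay below the array's 40th percentile in both day 7 mock arrays, at 8.19 and 11.1. The same held for the lower steroid array of each day, at 13.3, 16.8 and 12.7 on days 1, 3 and 7. The check is therefore weak, above all on day 7.

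AP3 stood higher in steroid than in mock tips on each of the 3 days. On day 1 its scaled signal was 25.7 and 32.6 in the steroid arrays, against 0.924 and 1.07 in the mock arrays. On day 3 it was 98.4 and 36.4 in the steroid arrays, against 1.40 and 2.70 in the mock arrays. On day 7 it was 217 and 229 in the steroid arrays, against 6.43 and 3.18 in the mock arrays. On no day did the steroid and mock arrays overlap, and the steroid arrays of day 7 lay above those of both earlier days. Both steroid arrays also lay above both mock arrays in 14.1% of all tested probe sets on day 1. The share was 10.5% on day 3 and 22.4% on day 7.

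PI also stood higher in steroid arrays, but its day 1 values were close together. On day 1 its scaled signal was 124.7 and 124.4 in the steroid arrays, against 90.1 and 112 in the mock arrays. On day 3 it was 240 and 137 in the steroid arrays, against 94.9 and 94.8 in the mock arrays. On day 7 it was 352 and 298 in the steroid arrays, against 63.7 and 58.4 in the mock arrays. The scaled signals of the groups did not overlap on any day, and the gap between them was widest on day 7. The shares of all tested probe sets given for AP3 apply here too, 14.1% on day 1. Before scaling, the day 1 values of PI overlapped. They were 93 and 94.3 in the steroid arrays, against 58.5 and 94.1 in the mock arrays.

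**Figure D1:**
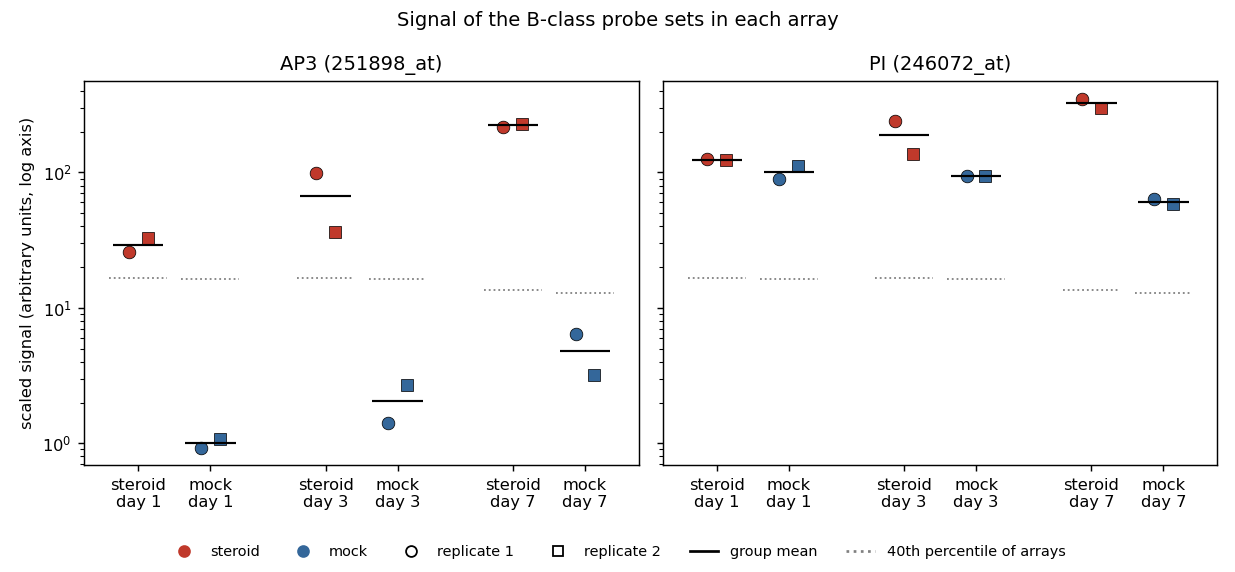
Scaled signal (arbitrary units, log axis) of AP3 and PI in each of the 12 arrays, steroid in red and mock in blue, circles for replicate 1 and squares for replicate 2. Black lines are group means of 2 arrays and dotted lines the mean 40th percentile of the group's arrays. AP3 lies below its arrays' 40th percentile in 6 of 6 mock arrays and in 0 of 6 steroid arrays. PI lies above it in all 12 arrays.

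On day 1 AP3 averaged 29.2 ± 4.84 in steroid and 0.999 ± 0.105 in mock tips (SD, n = 2 each), a fitted log2 difference of 2.64 (SE 0.42). On day 3 the averages were 67.4 ± 43.9 in steroid and 2.05 ± 0.921 in mock tips, with a log2 difference of 3.35 (SE 0.42). On day 7 they were 223 ± 8.45 in steroid and 4.81 ± 2.30 in mock tips, with a log2 difference of 4.66 (SE 0.42). AP3 was thus among the 3 probe sets with the highest fitted difference on each day. It ranked 3 on day 1 and 2 on days 3 and 7 among the 16511 tested. It was also among the 5 probe sets, 0.0303% of those tested, whose fitted difference was at least 2-fold higher in steroid tips on all 3 days. Since the choice of AP3 rested on these contrasts, nothing further is read from its place there.

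For PI the day 1 averages were 124.5 ± 0.194 in steroid and 101 ± 15.6 in mock tips (SD, n = 2 each), a log2 difference of 0.30 (SE 0.24). On day 3 they were 188 ± 72.6 in steroid and 94.9 ± 0.0487 in mock tips, with a log2 difference of 0.91 (SE 0.24). On day 7 they were 325 ± 37.9 in steroid and 61.0 ± 3.76 in mock tips, with a log2 difference of 2.33 (SE 0.24). The median of all tested probe sets was -0.12 on day 3, and relative to it the day 3 differences were 3.46 for AP3 and 1.02 for PI. The day 1 difference of PI was close to its SE, and 3394 of the tested probe sets had a higher one. By day 7 only 12 did. Over all tested probe sets at least 2-fold higher values made up 3.17% on day 1, 2.55% on day 3 and 0.418% on day 7. Both steroid arrays lay above both mock arrays on all 3 days in 0.533% of the tested probe sets, a group that holds AP3 and PI.

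The fold for AP3 depends on how its weak mock signal is treated. In the mock arrays AP3 lay below the array's 40th percentile in 6 of 6 and below the 20th percentile in 4 of 6. In the steroid arrays it lay below the 40th percentile in 0 of 6. The deposited table used here carries no detection call, so the 40th percentile was taken as a nominal floor for the mock value, a choice made after the signals were seen. Against that floor AP3 was at least 1.77-fold higher in steroid tips on day 1, at least 3.69-fold on day 3 and at least 17.4-fold on day 7. Its limit for day 3 rested on which steroid array was used, and was 2.25-fold without replicate 1 and 6.07-fold without replicate 2, a comparison added after the data were seen. Without floor or offset, the scaled group means of days 1, 3 and 7 stood in a ratio of 29.2, 32.8 and 46.4. For PI, above the 40th percentile in every array, the ratio of scaled means was 1.23, 1.99 and 5.32 on days 1, 3 and 7, against fitted folds of 1.23, 1.87 and 5.02 with the offset.

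**Figure D2:**
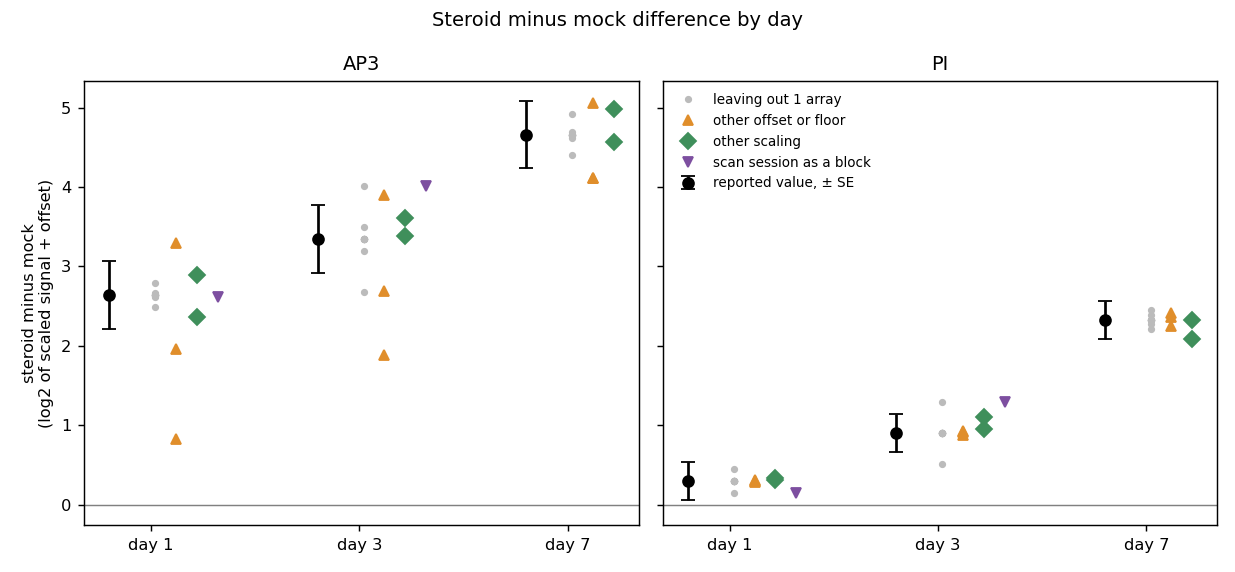
Steroid minus mock difference of AP3 and PI by day, in log2 of scaled signal plus offset. Black points are the reported values with their SE, and coloured points the values under other offsets, scalings, a block for the scan session and leaving out 1 array. All points lie above 0, from 0.82 to 5.05 for AP3 and from 0.15 to 2.45 for PI.

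A position within the array does not depend on the scaling, and it is used here only to follow a probe set from array to array. On day 1 AP3 had a higher signal than 50.9% and 56.8% of all probe sets in the steroid arrays, against 3.10% and 6.17% in the mock arrays. On day 3 the shares were 82.7% and 60.9% in the steroid arrays, against 8.03% and 15.4% in the mock arrays. On day 7 they were 93.6% and 93.9% in the steroid arrays, against 28.4% and 20.5% in the mock arrays. AP3 thus lay in the low end of the mock arrays and in the middle to upper part of the steroid arrays, from day 1 onwards.

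PI sat in the upper part of the array with and without steroid. Its signal exceeded that of 87.2% and 88.4% of probe sets in the day 1 steroid arrays, against 81.5% and 85.5% in the mock arrays. On day 3 the shares were 94.6% and 91.5% in the steroid arrays, against 81.9% and 81.5% in the mock arrays. On day 7 they were 96.7% and 95.7% in the steroid arrays, against 72.2% and 69.0% in the mock arrays. PI was higher on that scale in the steroid than in the mock arrays of each day, with no overlap.

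**Figure D3:**
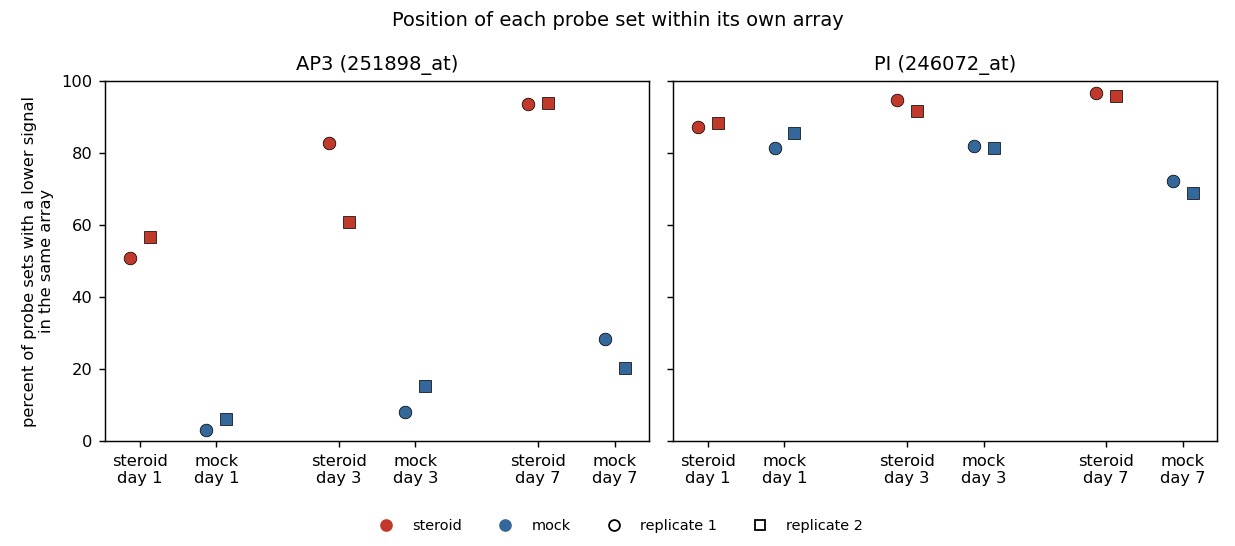
Percent of probe sets with a lower signal in the same array, for AP3 and PI in the 12 arrays, steroid in red and mock in blue, circles for replicate 1 and squares for replicate 2. AP3 lies between 50.9% and 93.9% in steroid arrays and between 3.10% and 28.4% in mock arrays, and PI between 87.2% and 96.7% in steroid arrays and between 69.0% and 85.5% in mock arrays.

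Ordered by mean scaled signal, the groups ran the same way by treatment in both genes. For AP3 the order was steroid day 7, steroid day 3, steroid day 1, mock day 7, mock day 3 and mock day 1. Steroid days 3 and 1 were neighbours whose lowest and highest arrays, 36.4 and 32.6, nearly met, and the SD of 43.9 on day 3 exceeded their gap. The 3 mock groups of AP3 all lay below the 40th percentile, where the order carries little information. For PI the order was steroid day 7, steroid day 3, steroid day 1, mock day 1, mock day 3 and mock day 7. Mock days 1 and 3 overlapped, and steroid days 3 and 1 differed by less than the SD of 72.6 on day 3.

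In steroid tips both genes were higher on day 7 than on day 1. The log2 difference between day 7 and day 1 was 2.77 (SE 0.42) for AP3 and 1.35 (SE 0.24) for PI. Over all tested probe sets limma called 14.2% higher and 11.4% lower in this contrast. The GAPDH ratio also differed, at 1.41 and 1.09 in the steroid arrays of day 7, against 7.93 and 8.47 in those of day 1, and its part in the difference was not tested. Between day 3 and day 1 the log2 difference was 0.96 (SE 0.42) for AP3 and 0.53 (SE 0.24) for PI. These values rested on replicate 1 of day 3. With replicate 2 as the only day 3 array, the one read in the same scan session as both day 1 steroid arrays, they were 0.29 for AP3 and 0.13 for PI. No scan session held day 7 arrays together with those of other days, so day and scan session cannot be told apart between days 7 and 1.

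The 2 day 3 steroid arrays differed from each other in both genes. Replicate 1 exceeded replicate 2 by log2 1.33 in AP3, and 6.81% of all tested probe sets differed by at least as much between these arrays. For PI the gap was 0.79, and 22.2% differed by at least as much. The GAPDH ratio was 6.60 in replicate 1 and 15.8 in replicate 2, and the part of RNA quality in this gap was not tested. Replicate 1 was read in the same scan session as both day 3 mock arrays, replicate 2 in the session that held 3 of the 4 day 1 arrays. Within the day 3 session the log2 difference was 4.01 for AP3 and 1.30 for PI, each from 1 steroid and 2 mock arrays. With replicate 2 as the only steroid array it was 2.68 for AP3 and 0.51 for PI. Within the session of 3 day 1 arrays, 2 steroid and 1 mock, the difference was 2.62 for AP3 and 0.15 for PI. On day 7 the steroid arrays were read in one session and the mock arrays in another, so scan session and treatment cannot be told apart on that day.

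At the offset used, the excess of AP3's difference over that of PI was of a similar size on each day. The log2 difference of AP3 exceeded that of PI by 2.34 on day 1, 2.44 on day 3 and 2.33 on day 7. Its similar size over the days depended on the offset and on the scaling. On the deposited values without scaling the gap was 2.04, 2.44 and 2.90 on days 1, 3 and 7. With the offset halved to 2.17 the gap was 2.99, 2.98 and 2.68 on days 1, 3 and 7, and with the offset doubled to 8.70 it was 1.67, 1.82 and 1.86. With the floor at the 40th percentile it grew with time, at 0.51, 0.95 and 1.71. In all these settings the response of AP3 was the larger, and both genes had their largest difference on day 7.

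Mock tips were compared between days, a contrast not independent of the choice, since the same mock arrays enter the steroid differences. A low mock signal on day 7 raises that day's steroid difference. The choice therefore favours a lower day 7 mock value and a smaller p. Neither gene passed the threshold of an adjusted p of 0.05, and for AP3, weak in all mock arrays, this says little. For PI the day 7 signal was 61.0 ± 3.76, against 101 ± 15.6 on day 1 (SD, n = 2 each), and the arrays did not overlap. The log2 difference was -0.68 (SE 0.24, 95% interval -1.21 to -0.16), with a limma adjusted p = 0.0544. Between day 7 and day 3 it was -0.60 (SE 0.24), with a limma adjusted p = 0.0810. Between day 3 and day 1, whose PI arrays overlapped, it was -0.08, with a limma adjusted p = 0.954. With scan session as a block this value was -1.02 (SE 0.28, limma adjusted p = 0.225). The mock arrays of days 3 and 1 shared no scan session, so the block value leans on the day 3 steroid arrays, which were read in different sessions.

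Some of the listed genes also differed in the same contrast of mock day 7 against day 1. Of the 13 tested list genes described at the end, limma called 4 higher and 3 lower. Over all tested probe sets it called 13.2% higher and 12% lower in this contrast, in which the scan session and the GAPDH ratio also differed. The leaf genes RCA and LHCB4.1 were higher on day 7, by log2 2.99 (limma adjusted p = 8.23e-05) and 1.11 (limma adjusted p = 0.0104). The stamen gene ROXY1 was higher by 2.05 (limma adjusted p = 0.00685) and the regulator SEU by 1.02 (limma adjusted p = 0.00547). The carpel genes ALC and SPT differed by -0.96 (limma adjusted p = 0.00824) and -0.73 (limma adjusted p = 0.0145), and the anther gene EMS1 by -0.78 (limma adjusted p = 0.0436). Their part in the PI value was not tested.

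The day 7 against day 1 value of PI is near the threshold, and its call varied with the settings. It passed with quantile normalization (log2 -0.78, limma adjusted p = 0.0126) and in the fit of the days 1 and 7 arrays alone (limma adjusted p = 0.0189). Without 1 array the limma adjusted p ran from 0.0145 to 0.236. It passed without either day 3 steroid array and not without any other. Relative to the median of all tested probe sets, itself -0.10, the PI value was -0.58. On the deposited values without scaling that median was 2.01, because the day 7 arrays were brighter, and the PI value relative to it was -0.49.

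AP3 in mock tips was 4.81 ± 2.30 on day 7, against 0.999 ± 0.105 on day 1 (SD, n = 2 each). The log2 difference was 0.75 (SE 0.42, 95% interval -0.16 to 1.67), with a limma adjusted p = 0.205. It was 0.50 between day 7 and day 3 (limma adjusted p = 0.399) and 0.25 between day 3 and day 1 (limma adjusted p = 0.911). All 6 signals were below the 40th percentile, and with the floor there the day 7 against day 1 difference was -0.35. AP3 entered the tested set through its steroid arrays alone, so these p-values cannot tell a steady signal from an undetected one. No direction is therefore read for AP3 in mock tips. Over all tested probe sets limma called 13.2% higher and 12% lower between mock day 7 and day 1, and 13.2% higher and 14.1% lower between day 7 and day 3. Between day 3 and day 1 it called 0% in either direction, with 1305 at an unadjusted p under 0.05. The GAPDH ratio and the scan session changed together with day 7, and their part in the mock differences was not tested.

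Across the 12 arrays, with each day's mean subtracted, the log2 signals of AP3 and PI had a Pearson's r of 0.917 and a Spearman's rho of 0.965. This is a description without a p, since both were chosen for higher signals under steroid and the arrays share that contrast. Of the other 16510 tested probe sets, 5 had a higher r with AP3 than PI had, and 5 had a higher r with PI than AP3 had.

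The probe sets most like AP3 were AT3G11000 (r = 0.980), the unnamed 260355_at (0.970), REM22 (0.932), 253411_at (0.921) and AT4G38120 (0.919), before PI itself. REM22 encodes a B3-domain protein of the REM group, named for expression in reproductive meristems. REM22 had a scaled signal of 39.7 and 22.9 in the day 3 steroid arrays, against 1.08 and 12.03 in the mock arrays. On day 7 REM22 had 78.1 and 87.2 in the steroid arrays, against 7.34 and 5.97 in the mock arrays. REM22 lay below the array's 40th percentile in 2 of 6 steroid arrays and in 6 of 6 mock arrays, so its mock signals, like those of AP3, were weak.

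The probe sets most like PI were AT2G35310 (r = 0.959), 260355_at (0.923), AT5G57720 (0.922), 254391_at (0.919) and REM22 (0.918). For both genes these r values share the contrast the members were chosen on, and are a description only. In every mock array 260355_at and 254391_at lay below the array's 40th percentile, with highest signals of 12.6 and 8.63. So did 254391_at in both day 1 steroid arrays, at 12.5 and 4.88. Like REM22, both entered the tested set through steroid arrays alone. On day 1 AT2G35310, like PI, differed little between treatments, with 80.2 and 73.9 in the steroid arrays, against 67.6 and 63.0 in the mock arrays. On day 7 AT2G35310 had 146 and 120 in the steroid arrays, against 48.7 and 40.5 in the mock arrays. AT5G57720 overlapped between steroid and mock on day 1, and on day 3 its lower steroid array, at 35.9, nearly met the higher mock array, at 35.6. On day 7 it was apart, at 66.7 and 57.1 in the steroid arrays, against 10.6 and 7.11 in the mock arrays. Of the 8 probe sets named in this way for AP3 or PI, 260355_at and REM22 were in both sets. Without subtracting each day's mean, 3 of the 6 most like AP3 and 5 of the 6 most like PI were kept.

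**Figure D4:**
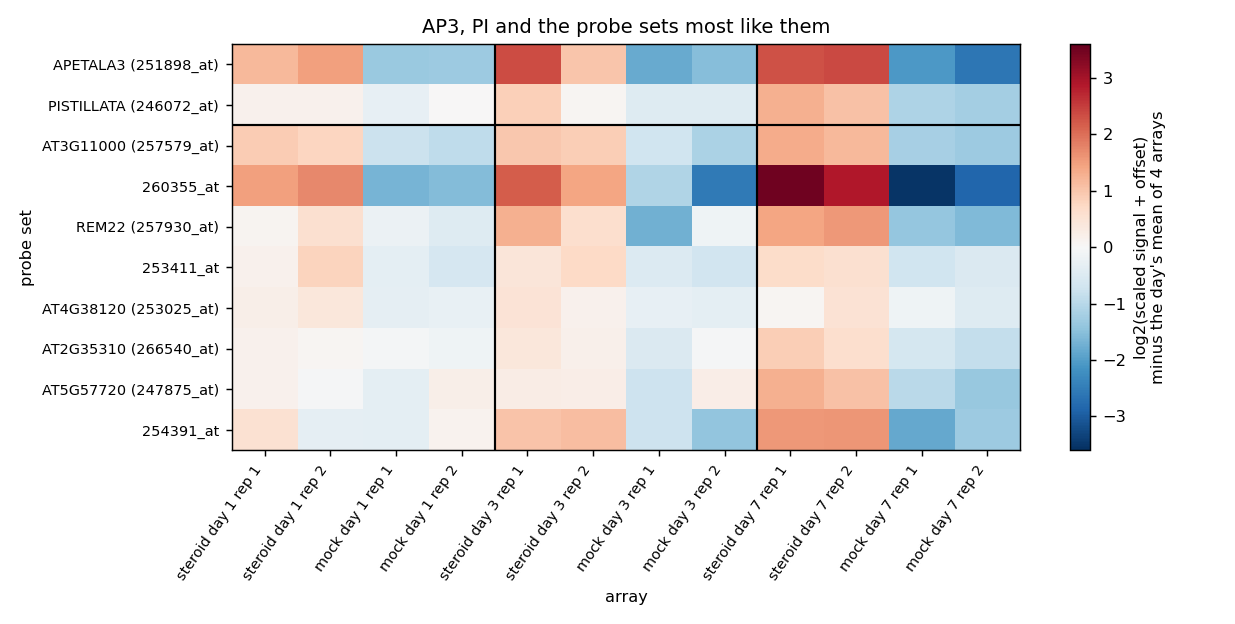
Log2 of scaled signal plus offset, minus the mean of the day's 4 arrays, for AP3, PI and the 8 other probe sets with the highest correlation to either, in the 12 arrays. Red is above and blue below the day's mean, and black vertical lines separate days 1, 3 and 7. The steroid columns are mostly red and the mock columns blue, with the deepest contrast in 260355_at and AP3.

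Few other genes of the B-class pathway can be followed by name in these arrays. Of 97 loci in 8 lists, which covered floral MADS genes, regulators of AP3 and PI, reported targets, and stamen, petal, carpel, meristem and leaf genes, 19 had a probe set with that gene's name and 13 were tested. None of the 15 genes in the list of floral homeotic and floral MADS genes was among them, while the MADS-box gene AGL24 was tested in the list of regulators. limma called 0 of the 13 on each day, with 2 at an unadjusted p under 0.05 on day 1, 0 on day 3 and 1 on day 7. Those of day 1 were ROXY1 (log2 -1.22, SE 0.46) and PTL (-0.84, SE 0.36), both lower in steroid tips. Of the day 1 signals of ROXY1, only the higher mock value, 34.8, lay above the array's 40th percentile. The gene of day 7 was NUB. On day 1 the median log2 difference of the 13 was -0.17, against -0.03 over all tested probe sets. It was -0.21 against -0.12 on day 3, and 0.01 against 0.00086 on day 7. In either direction limma called 0.0182% of all tested probe sets on day 1, 0.0182% on day 3 and 0.0545% on day 7.

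Among the regulators, SEU, a co-repressor that restricts AGAMOUS, had a log2 difference of 0.01 on day 7, and the MADS-box gene AGL24 had -0.32. RBE, a zinc finger gene of petal development, had 0.15 (SE 0.68). Its day 7 signals lay between 3.68 and 6.22, all below the array's 40th percentile. Of the targets only NUB, which encodes a zinc finger protein that promotes the growth of stamens and carpels, was tested. NUB had a scaled signal of 25.8 and 21.7 in the day 7 steroid arrays, against 1.78 and 6.17 in the mock arrays, a log2 difference of 1.80 (SE 0.60) that limma did not call. Both of these mock signals lay below the array's 40th percentile. Of the stamen genes ROXY1, a glutaredoxin, had -0.57 and EMS1, a receptor kinase of the tapetum, 0.27.

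The petal genes PTL, a trihelix factor, and BPE, a bHLH factor of petal size, had day 7 log2 differences of -0.08 and -0.01. SPT and ALC, bHLH genes of the carpel, had 0.20 and 0.26. The leaf genes RCA, the Rubisco activase, and LHCB4.1, of the light-harvesting complex, had -0.10 and -0.05. None of these petal, carpel and leaf genes differed on day 7 by more than its SE except SPT and ALC, whose SE were 0.19 and 0.22. The day 7 signals of RCA overlapped, at 375 and 429 in the steroid arrays, against 463 and 403 in the mock arrays.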

How the data were processed

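Arrays of 12 samples were analysed. Per the submitters' processing notes the authors used MAS5, with no version or scaling given, and the deposited intensity is linear, with 1 value per probe set and array. Each array was scaled to a median of 24.8, and log2 was taken after adding 4.35, the median over arrays of the 20th percentile. Probe sets above their array's 40th percentile in at least 2 arrays were tested, 16511 in all. Both members were included, AP3 through its steroid arrays alone. One limma 3.58.1 model (R 4.3.3, lmFit, eBayes with a trend) held 6 group means and 6 residual degrees of freedom. P-values were two-sided and adjusted by Benjamini-Hochberg over all tested probe sets. With 2 arrays a group, the smallest p of an exact permutation test would be 0.333. The members, lists and rules were chosen with earlier results of these data known. For each member the 6 probe sets with the highest day-centred Pearson's r were named, and up to 4 tested members of each list by day 7 difference. Scan sessions are the 5 scan dates in the instrument records, deposited beside each array under a unit called other. Names came from the platform table, with 13513 probe sets given 1 symbol, 503 several and 8730 none, and 13436 were updated by gene identifier through RefSeq. No sequences were used here.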

Additional observations from a re-analysis of the deposited data

Results flagged for a closer look

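In 3 of the 13 tested list genes every steroid array lay on one side of the mock arrays on one day and on the opposite side on another. The share of all tested probe sets that did so was not counted, so nothing is read from this number. Both steroid arrays lay above both mock arrays in 14.1% of all tested probe sets on day 1, 10.5% on day 3 and 22.4% on day 7. NUB had a log2 difference between steroid and mock tips of -0.66 on day 1 and 1.80 on day 7. SPT had -0.21 on day 3 and 0.20 on day 7, and CLV3 had -0.37 on day 3 and 0.35 on day 7. The day 1 signals of NUB were 8.45 and 5.80 in the steroid arrays, against 10.8 and 17.05 in the mock arrays. All of these but the 17.05 lay below the array's 40th percentile, as did the day 7 mock signals of NUB and CLV3. The difference between days was tested in the 12-array model and did not pass, with a limma adjusted p = 0.9997 for NUB (log2 2.46, SE 0.84) and a limma adjusted p = 0.9996 for SPT (0.41, SE 0.27) and CLV3 (0.72, SE 0.61). AP3 and PI showed no such change of sign.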

How the results depend on the processing

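All 136 alternative steroid minus mock values of AP3 and PI kept their sign, and 122 moved by less than the residual SD. Many of them could not move. By construction the value stays the same when an array of another day is left out. It also stays the same under the other filters, without the variance trend, with the day's arrays alone and with the replicate block. These counts therefore measure stability only in part. The AP3 value was 3.30 on day 1 and 3.90 on day 3 with the offset halved, and 1.96, 2.70 and 4.11 on days 1, 3 and 7 with it doubled. With the floor at the 40th percentile, added after the data were seen, it was 0.82, 1.88 and 4.12. With scan session as a block the day 3 values were 4.01 for AP3 and 1.30 for PI, and leaving out 1 array they ran from 2.68 to 4.01 and from 0.51 to 1.30, the ends coming from the 2 day 3 steroid arrays. The weak mock signal of AP3 makes its value follow the offset by construction.

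Mock differences between days were less stable. For PI, day 7 minus day 1 passed limma's threshold at -0.78 with quantile normalization, at -0.72 with the floor, and at -0.68 with the stricter filter, the arrays of both days alone or the replicate block, and leaving out 1 array it ran from -0.84 to -0.53. Its day 7 minus day 3 value passed at -0.64 with quantile normalization and, at -0.60, without either day 3 steroid array, and ran from -0.66 to -0.54. PI day 3 minus day 1 ran from -0.23 to 0.071 leaving out 1 array, and was -1.02 with scan session as a block. Without scaling PI had 1.52, 1.19 and 0.33 for days 7 and 1, 7 and 3, and 3 and 1, and AP3 had 2.03 and 1.71 for the first pairs, following the brighter day 7 arrays. With the floor the AP3 values were -0.35, -0.34 and -0.013, and with scan session as a block its day 3 minus day 1 value was -1.10.

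Counts of all calls varied too, on day 1 from 0 to 168 against 3 reported, on day 3 from 0 to 11 against 3, and on day 7 from 3 to 267 against 9. For mock day 7 minus day 1 they ran from 1411 to 14342 (14329 higher, without scaling) against 4169 (2180 higher). For mock day 7 minus day 3 they ran from 1746 to 12394 against 4507, and for day 3 minus day 1 from 0 to 133 against 0. Same-numbered steroid and mock arrays deviated together with r of 0.124, 0.0996 and 0.0883 on days 1, 3 and 7, so the numbers were not taken as pairs. The replicate block is balanced over steroid and mock arrays, so by construction it left the differences of AP3 (2.64, 3.35 and 4.66) and PI (0.30, 0.91 and 2.33) unchanged. It could alter only their SE and the calls, and it changed no call of the members but the PI one above. With 2 arrays a group, small differences such as that of PI on day 1 are not resolved. No scan block was possible for day 7.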
